A study of Peromyscus maniculatus with 16 samples.

Results

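The report covers 10 genes of growth hormone, IGF and hepatocyte mitogen signalling in the liver of the deer mouse *Peromyscus maniculatus*: Ghr, Socs2, Igf1, Igfbp1, Igfbp2, Egfr, Hgf, Met, Fgfr4 and Lifr. They were taken by symbol from a table of read counts for 16910 genes, in which each of the 10 had 1 row, and all 10 were abundant enough to be tested. The control group (C) held 6 males on a regular chow diet, 5 of the BW stock (P. maniculatus bairdii) and 1 of the SM2 stock (P. maniculatus sonoriensis). The group on high fat diet (HFD) without steatosis (NS) held 5 males, 4 BW and 1 SM2. The group on HFD with steatosis (S) held 3 BW females, 1 BW male and 1 SM2 male. Diet lasted 28 weeks and all animals were 10 months old at the end. Both stocks are outbred and kept as closed colonies, and whole liver was sequenced, so that fewer cells of a type and less RNA per cell cannot be told apart. All females were in S, so the effects of sex and of steatosis cannot be told apart in them.

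Growth hormone acts on hepatocytes through its receptor, encoded by Ghr, which activates the kinase JAK2 and the transcription factor STAT5. STAT5 induces Igf1, the main circulating growth factor made by the liver, and Socs2, which in turn dampens the receptor. Circulating IGF1 is held by binding proteins, of which IGFBP1 and IGFBP2 are made in the liver and are repressed by insulin and feeding. EGFR, the HGF receptor MET and the bile acid-regulating receptor FGFR4 are receptor tyrosine kinases of hepatocytes. HGF itself comes mainly from stellate and endothelial cells, and LIFR pairs with gp130 to transmit the signals of leukemia inhibitory factor and related cytokines. In rodents, growth hormone is secreted in a different rhythm in males and females, and many liver genes follow that rhythm.

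Total counts lay between 4640733 and 11349971 per animal, and counts of the 10 genes ran from 0 to 26552. Of 12 hepatocyte markers, 8 were tested, with summed levels of 39445 to 72640 CPM (reads scaled to library size after TMM normalization) over the 16 animals. S animal 36016 stood apart, with 2058 CPM of Col1a1 and 2054 CPM of Vim against at most 17.0 and 81.3 CPM in any other animal, and it had the smallest library. The 14 stellate cell markers summed to 385 to 739 CPM in the other 4 S animals and to 2593 CPM in animal 36016. Of that last sum, 2058 CPM were Col1a1 alone. The 8 tested macrophage markers were highest in S animal 35990, at 992 CPM, against 148 to 571 CPM in all the others. Endothelial markers (8 tested of 10) summed to 147 to 315 CPM in S and 151 to 284 CPM in C. The sums for cholangiocytes (6 tested of 8) and blood (2 tested of 7) reached at most 47.8 and 11.1 CPM. How far these cell types contribute to the results for the 10 genes was not tested.

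Of the 10 genes, 2 passed the test in S vs C, and both rose: Socs2 and Lifr. A call means a Benjamini-Hochberg adjusted p under 0.1 in edgeR's quasi-likelihood test together with a fold change of at least 2. All adjusted p-values are from this test unless another is named. The main fit covered 12639 genes. Fits on fewer animals or with another filter on low counts selected their genes anew, so their number of genes can differ. The share of members called was 20.0%, where 4.06% of all genes tested were called. At adjusted p under 0.1 with no limit on the fold, the same 2 genes passed, and 10.8% of all genes did. In NS vs C, edgeR called 0 of the 10, with 0 at an unadjusted p under 0.05 and 0 called by DESeq2. Of all genes, 0.0712% were called in NS vs C, or 0.0791% at any fold, and 1048 of 12639 had an unadjusted p under 0.05. In S vs NS, edgeR called 0 of the 10, with 1 (Lifr) at an unadjusted p under 0.05 and 1 (Lifr) called by DESeq2. Of all genes, 0.00791% were called in S vs NS with or without the limit on the fold, and 1381 of 12639 had an unadjusted p under 0.05. Over the alternatives, DESeq2 among them, 0 to 191 of all genes were called in S vs NS. The median log2 fold change of the members was -0.15 for S vs C (0.10 over all genes), -0.19 for NS vs C (0.01 over all genes) and 0.14 for S vs NS (0.04 over all genes). S vs C and NS vs C share the control animals.

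**Figure D1:**
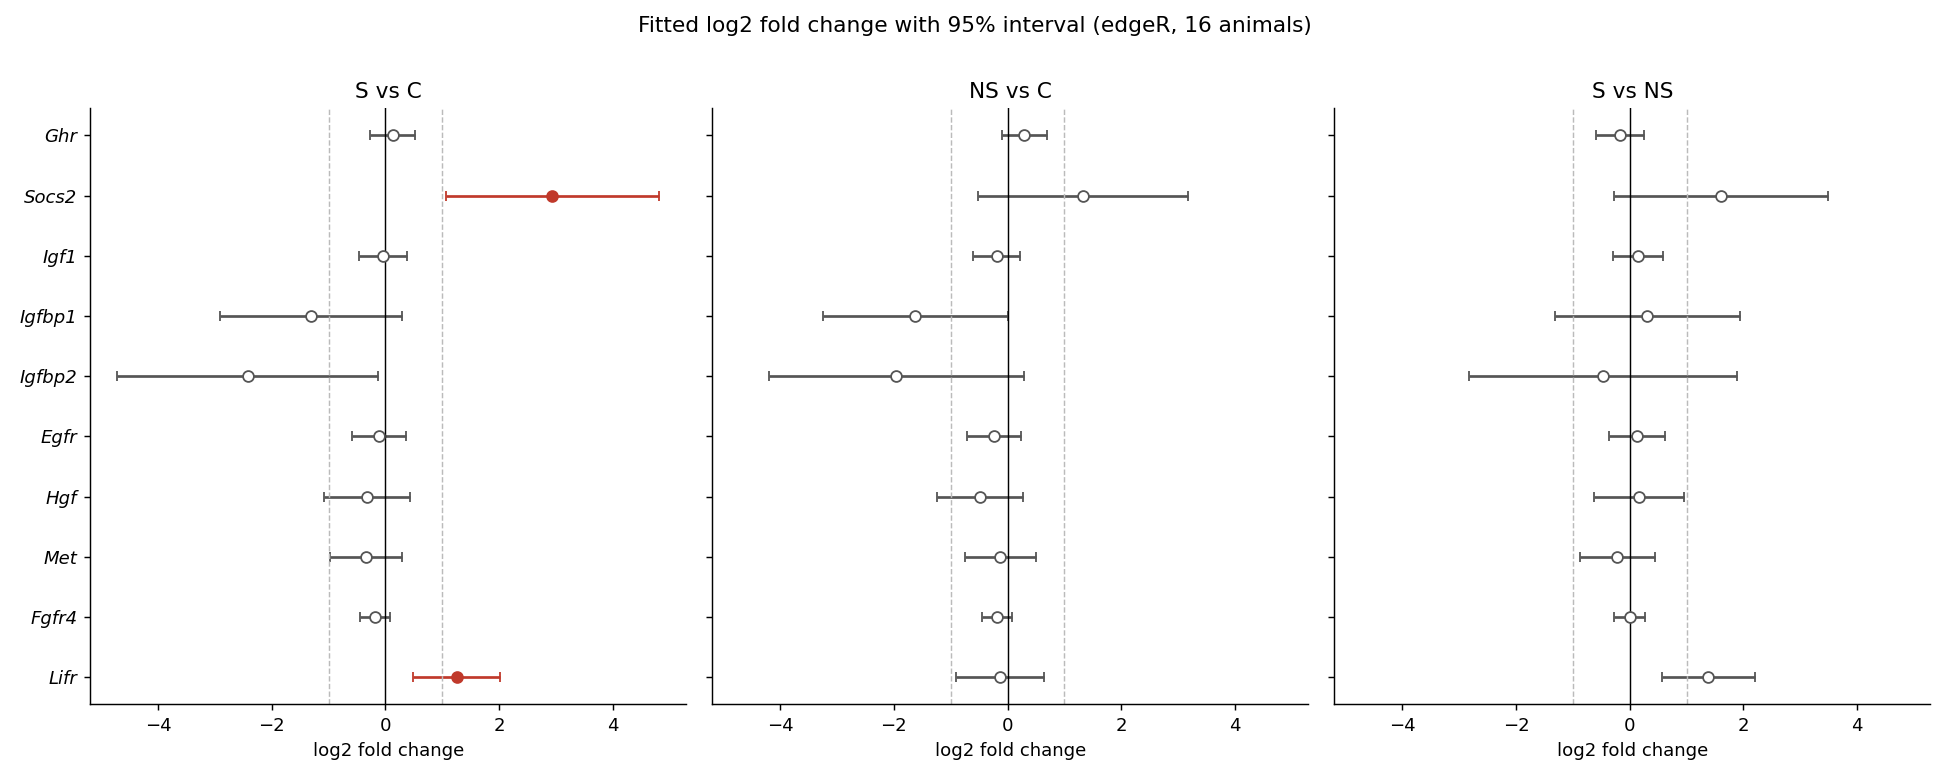
Fitted log2 fold change (horizontal axis) of each of the 10 genes (vertical axis) in the 3 comparisons, with 95% intervals from edgeR over 16 animals; dashed lines mark a fold of 2. Filled red points passed the test: Socs2 at 2.93 and Lifr at 1.25 in S vs C, and none in the other panels.

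**Figure D2:**
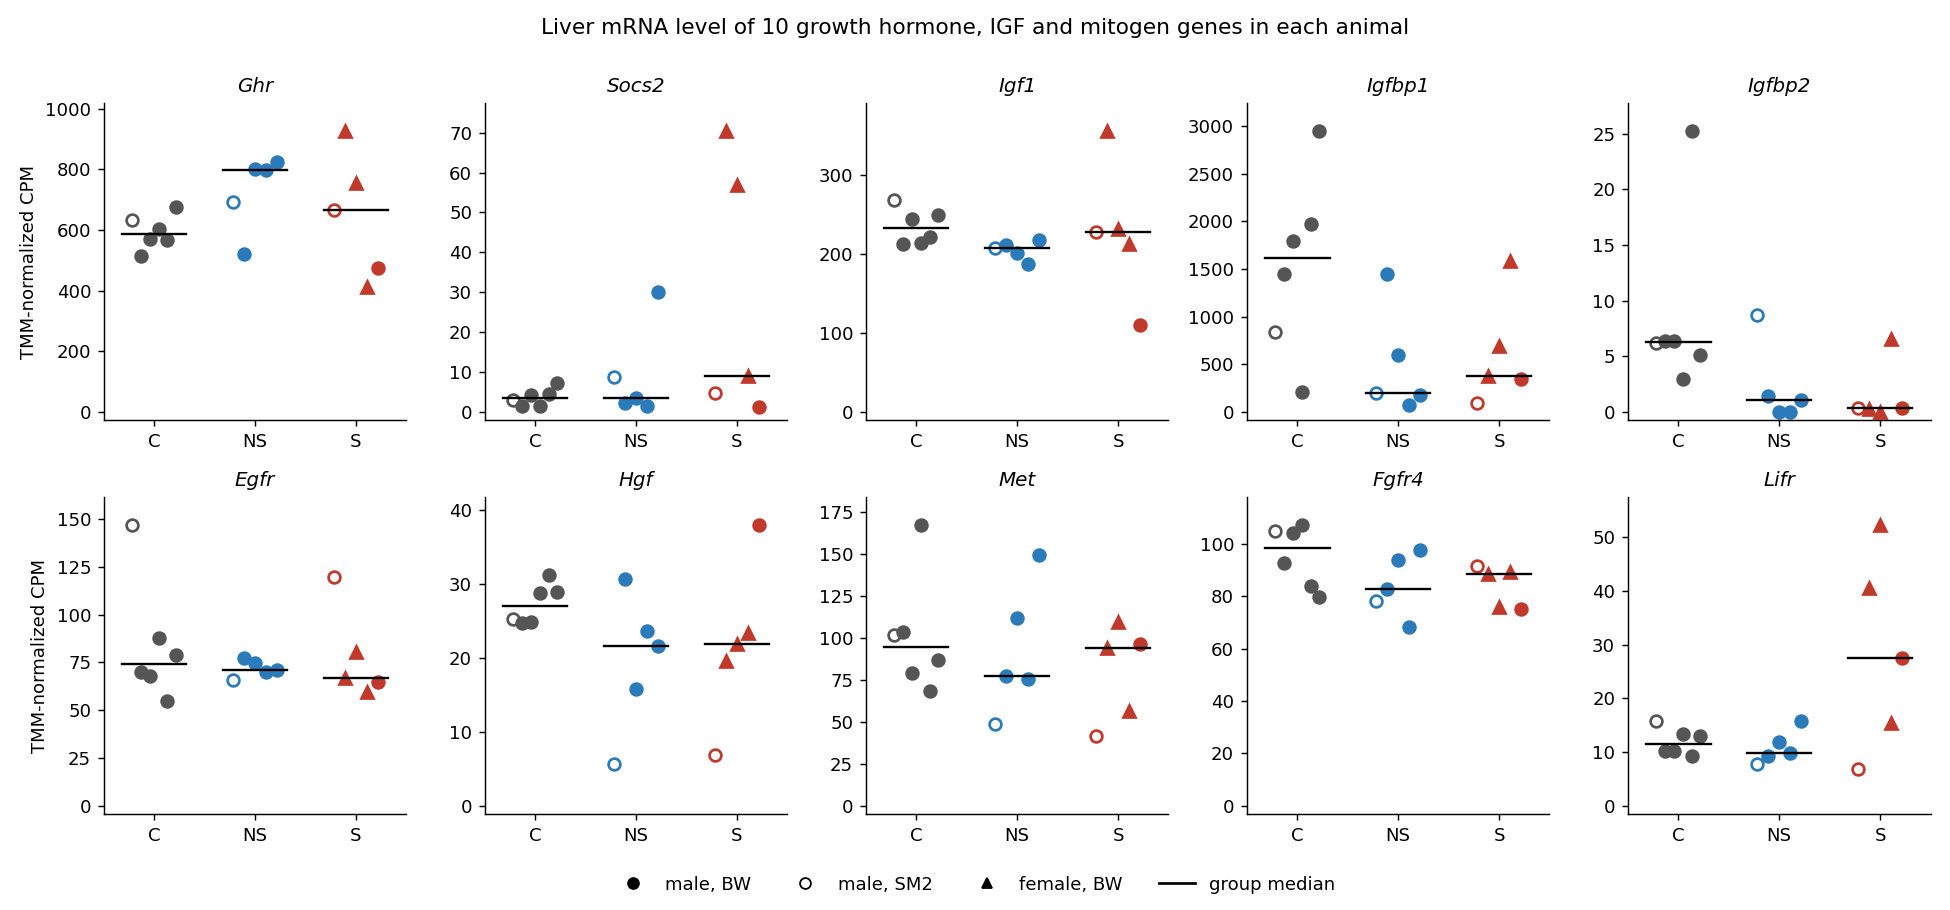
TMM-normalized CPM (vertical axes, linear, 1 scale per gene) of the 10 genes in each animal of the C, NS and S groups; circles are males, triangles females, open symbols SM2 animals, and lines group medians. Socs2 reached 70.4 and 56.9 CPM in 2 S females, and Lifr 40.5 and 52.3 CPM in the same 2, above all C and NS animals.

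Ghr, the growth hormone receptor gene, was expressed in every liver, and its level did not pass the test in any comparison. In C it ranged from 513 to 676 CPM with a median of 587 CPM. The NS animals had 520, 801, 798, 826 and 694 CPM, so 4 of 5 lay above every C animal. The S animals had 926, 757 and 412 CPM (females 35955, 35982 and 35990) and 474 and 667 CPM (males 36016 and 10880), with 2 above and 2 below the C range. The coefficient of variation was 9.56% for C, 17.4% for NS and 32.4% for S, which holds both sexes, and these spreads were not tested against each other. Ghr had a log2 fold change of 0.13 in S vs C (95% interval -0.27 to 0.52) and 0.29 in NS vs C (-0.10 to 0.69). Both intervals exclude a doubling.

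Socs2, the feedback inhibitor of growth hormone signalling, rose in S vs C. It stood at 3.67 ± 2.14 CPM in C (SD, n = 6), 9.21 ± 12.0 CPM in NS (n = 5) and 28.4 ± 32.6 CPM in S (n = 5). The C animals ranged from 1.56 to 7.21 CPM with a median of 3.56 CPM. The 3 S females had 70.4, 56.9 and 9.06 CPM, all above the C range, while the 2 S males had 1.13 and 4.75 CPM, one below it and one inside it. In NS, animal 35987 had 30.1 CPM and SM2 animal 10865 had 8.82 CPM, and the other three had 2.30, 3.39 and 1.40 CPM. Counts ranged from 6 to 807, and the level differed by 62.5-fold between the lowest and the highest animal, the widest range among the 9 members with no zero. The log2 fold change in S vs C was 2.93 ± 0.89 (SE), with an adjusted p of 0.0681 in edgeR. It was 1.32 ± 0.88 in NS vs C (adjusted p = 0.720) and 1.61 ± 0.89 in S vs NS (adjusted p = 0.516). The S vs C call was lost without any single one of S animals 35955 (log2 fold change 2.26, adjusted p = 0.148) and 35982 (0.133), or of C animals 10876 (0.104), 35972 (0.110), 35975 (0.131), 36001 (0.119) and 36007 (0.110).

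Split by sex, the 3 S females had the 3 highest Socs2 levels of their group. The 3 females alone against C gave a log2 fold change of 3.60 ± 0.78 (adjusted p = 0.0507), and the fit with sex as a covariate, which compares the 2 S males with C, gave -0.28 ± 1.04 (adjusted p = 0.904). The difference itself, female S minus male S, was 3.88 ± 1.24 on the log2 scale (unadjusted p = 0.00609, adjusted p = 0.248), which did not pass the test. Over the 10 members this contrast called 0, where 0.388% of all genes were called. At an unadjusted p under 0.05 it had 2 of the 10 (Socs2 and Igf1) and 1420 of the 12639 genes. This contrast and the fit of the females alone were added after the counts were seen. The contrast rests on 3 animals against 2, and the males included the SM2 animal and animal 36016 with its high Col1a1.

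**Figure D3:**
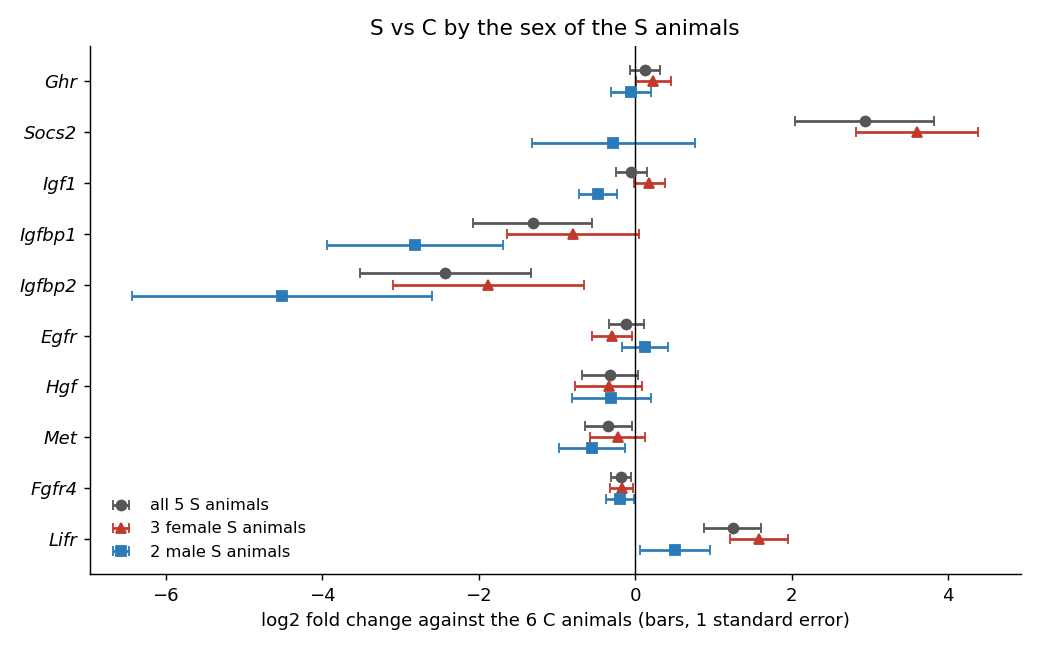
Log2 fold change against the 6 C animals (horizontal axis, bars 1 standard error) of the 10 genes for all 5 S animals, the 3 S females and, from the fit with sex as a covariate, the 2 S males. Socs2 stands at 3.60 in the females and -0.28 in the males, and Lifr at 1.59 and 0.51.

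Among known targets of the sex-dependent growth hormone rhythm, 9 of 27 listed genes were tested. In S vs C 1 rose and 1 fell, where 4.06% of all genes were called. A1bg, which is female-biased in rodent liver, had 381, 189 and 128 CPM in the 3 S females. It had 1.83 and 0 CPM in the S males, at most 17.6 CPM in NS and at most 2.66 CPM in C. The females did not overlap with any male on either diet. The log2 fold change in S vs C was 7.28 ± 1.47 (adjusted p = 0.0207), and with sex as a covariate it was 0.23 (adjusted p = 0.952). It was 6.47 without S animal 35955 and 8.17 without C animal 10876, and was called in both fits. Cyp7b1, a male-biased oxysterol hydroxylase, fell by 1.74 ± 0.47 on the log2 scale (adjusted p = 0.0497). It had 18.3, 14.1 and 7.72 CPM in the S females, 19.1 and 33.7 CPM in the S males and 19.6 to 147 CPM in C. Its call was lost with sex as a covariate (-1.23, adjusted p = 0.258), and also without C animal 35975 (0.102) or 36007 (-1.28, adjusted p = 0.115). The median of this list in S vs C was -0.28, or 0.00 with the 1 gene at or under 3 counts in every animal of a group set to its bound.

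Of the other genes of growth hormone receptor signalling, 16 of 17 listed were tested, with a median log2 fold change of 0.15 in S vs C. None was called in any of the 3 comparisons, and 1 passed at a smaller fold: Ptpn2, a phosphatase that acts on JAK and STAT proteins, fell by 0.54 ± 0.14 on the log2 scale in S vs C (adjusted p = 0.0486). Its levels were 13.0 to 16.7 CPM in S and 18.1 to 26.5 CPM in C, which did not overlap, and 14.0 to 20.8 CPM in NS. Ptpn2 did not pass with sex as a covariate (-0.45, adjusted p = 0.204), with male animals only (-0.45, adjusted p = 0.232), with total counts (-0.30, adjusted p = 0.153), with the S females alone (-0.60, adjusted p = 0.113) or without C animal 36007 (-0.48, adjusted p = 0.111). Stat5a, one of the STAT5 genes, had a log2 fold change of 0.95 ± 0.33 (adjusted p = 0.104).

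Igf1 did not pass the test in any comparison. Levels in C ranged from 212 to 268 CPM with a median of 232 CPM. In NS, levels were 211, 201, 187, 218 and 207 CPM, and 4 of 5 lay just below the C range. The S females had 355, 232 and 212 CPM, and the S males had 109 (animal 36016) and 227 CPM. The highest and the lowest Igf1 level of all 16 animals were thus both in S. Its coefficient of variation was 9.64% for C, 5.62% for NS and 38.4% for S. Igf1 had a log2 fold change of -0.05 in S vs C (95% interval -0.46 to 0.37) and -0.19 in NS vs C (-0.61 to 0.22). Female S minus male S was 0.66 ± 0.27 on the log2 scale (unadjusted p = 0.0245, adjusted p = 0.367).

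Igfbp1, encoding the insulin-repressed IGF binding protein, varied 38.8-fold over the 16 animals, and no comparison passed the test. It stood at 1534 ± 948 CPM in C (SD, n = 6), 499 ± 566 CPM in NS and 619 ± 581 CPM in S (n = 5 each). Controls ranged from 211 to 2945 CPM with a median of 1618 CPM. In NS, levels were 1447, 599, 75.9, 178 and 195 CPM. The S animals had 379, 693 and 1586 CPM (females) and 349 and 89.5 CPM (males). So 3 of 5 NS and 1 of 5 S animals lay below the C range, and none above it. The log2 fold change was -1.62 ± 0.77 in NS vs C (unadjusted p = 0.0506, adjusted p = 0.596) and -1.31 ± 0.76 in S vs C (adjusted p = 0.305). Without NS animal 35930, the one with 1447 CPM, the value in NS vs C was -2.55 (adjusted p = 0.249).

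Igfbp2 was sparse in this liver RNA and lower in most HFD animals, with no comparison past the test. Its counts were 19 to 266 in C. In NS they were 12, 0, 0, 11 and 69, and in S they were 3, 0 and 69 in the females and 2 and 3 in the males. In CPM, C ranged from 2.97 to 25.2 with a median of 6.28, and 4 of 5 NS and 4 of 5 S animals lay below that range. The exceptions were SM2 animal 10865 in NS (8.70 CPM) and 35990 in S (6.58 CPM). The log2 fold change was -2.42 ± 1.09 in S vs C (unadjusted p = 0.0394, adjusted p = 0.188) and -1.96 ± 1.06 in NS vs C (adjusted p = 0.654). Igfbp2 was called in S vs C only when animal 35990 was left out (adjusted p = 0.0412). The other 4 S animals were then at 3 counts or fewer, and no fold is given.

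Of the other genes of the IGF axis, all 18 listed were tested, with a median log2 fold change of 0.35 in S vs C (0.10 over all genes). Among all genes 4.06% were called, and in this list 3 were called, all higher. They were Stc1 and Stc2, which encode stanniocalcins, and Pappa, which encodes a protease of IGF binding proteins that stanniocalcins inhibit. Their counts in animal 36016 were 40, 49 and 56, and at most 3 in each of the other 15 animals. For that reason no fold of the main fit is given. Without animal 36016 these 3 genes fell under the filter on low counts and 0 of the list were called, with a list median of -0.07 over the 15 genes still tested.

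Lifr rose in S vs C, and its levels were 11.9 ± 2.54 CPM in C (SD, n = 6), 10.9 ± 3.06 CPM in NS and 28.5 ± 18.4 CPM in S (n = 5 each). In C the range was from 9.20 to 15.8 CPM with a median of 11.6 CPM. The NS animals had 9.22, 11.8, 9.82, 15.7 and 7.82 CPM, close to the C range throughout. The S females had 40.5, 52.3 and 15.4 CPM, and the S males had 27.6 CPM (36016) and 6.82 CPM (10880). Of the S animals, 3 lay above every C and NS animal, 35990 lay within the C range, and the SM2 male 10880 lay below it. The lowest animals of both HFD groups were thus the SM2 animals, whereas the SM2 animal of C was the highest of its group. The log2 fold change in S vs C was 1.25 ± 0.36 (adjusted p = 0.0606).

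For Lifr, S vs NS gave a log2 fold change of 1.38 ± 0.39 (unadjusted p = 0.00225, adjusted p = 0.292), and NS vs C gave -0.13 (95% interval -0.91 to 0.65). Among the BW animals alone, S vs NS was 1.55 ± 0.31 (adjusted p = 0.0913) and S vs C 1.60 ± 0.29 (adjusted p = 0.0130), and both were called. Leaving out S animal 10880 alone gave a call in S vs NS as well (1.65, adjusted p = 0.0727). The call in S vs C was lost without S animals 35982 (0.92, adjusted p = 0.148), 36016 (1.26, adjusted p = 0.104) or 35955 (1.09, adjusted p = 0.113), and without C animals 35975 (0.125), 36001 (0.119) or 36007 (0.112). By sex, the 3 females alone against C gave 1.59 ± 0.37 (adjusted p = 0.0683). The 2 males against C gave 0.51 ± 0.44 (adjusted p = 0.524). Female S minus male S was 1.08 ± 0.51 on the log2 scale (adjusted p = 0.448).

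Of the other gp130 cytokine receptors and ligands, 11 of 15 listed were tested, with a median log2 fold change of -0.05 in S vs C, or -0.16 with the 1 gene at or under 3 counts set to its bound. In the main fit no comparison called any of them, and 1 gene, Jak1, passed at a smaller fold. Jak1, a kinase bound to gp130 receptors, rose by 0.56 ± 0.19 on the log2 scale in S vs C (adjusted p = 0.0923). It had 106 to 172 CPM in S and 66.2 to 114 CPM in C. Jak1 was not past the threshold in 10 of the 16 fits that left out 1 animal (adjusted p 0.101 to 0.182). Among them was that without animal 36016 (0.57, adjusted p = 0.149). It also did not pass with the S females alone (0.42, adjusted p = 0.349) or with male animals only (0.75, adjusted p = 0.113). The same held with no filter on low counts (0.56, adjusted p = 0.104). Clcf1, a ligand of the same family, had a log2 fold change of 2.28 ± 0.81 in S vs C (adjusted p = 0.105). It had 0 to 0.95 CPM in the S females and 2.44 and 3.57 CPM in the S males. Counts were 1 to 6 in C and 0 to 20 in S, so the fold is imprecise. Clcf1 was called with DESeq2 (adjusted p = 0.0569) and total counts (0.0641). It was also called with sex as a covariate (0.0345) and male animals only (0.0177), and in 2 of the 16 fits that left out 1 animal.

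Egfr did not pass the test in any comparison. The C animals ranged from 54.8 to 147 CPM with a median of 74.4 CPM, and the NS animals lay close together at 77.2, 74.8, 69.9, 71.2 and 65.9 CPM. The S females had 67.0, 80.4 and 59.4 CPM, and the S males had 64.6 and 120 CPM. The highest C and the highest S animal were both SM2, whereas the SM2 animal of NS was the lowest of its group. Egfr had a log2 fold change of -0.11 in S vs C (95% interval -0.58 to 0.36) and -0.23 in NS vs C (-0.71 to 0.24). Of the EGF family and EGF receptor regulators, 15 of 19 listed were tested, with a median of -0.06 in S vs C, and 1 was called. This was Nrg1, which encodes the ERBB3 and ERBB4 ligand neuregulin 1. It had 13.5 CPM in animal 36016, 0.17 to 2.22 CPM in the other S animals and at most 0.69 CPM in C (log2 fold change 3.90 ± 0.96, adjusted p = 0.0371). Its counts were 0 to 7 in C, 1 to 15 in NS and 2 to 72 in S, so the folds are imprecise. In NS it had 0.12 to 1.89 CPM, with 1.86 in NS vs C (adjusted p = 0.639). Without animal 36016 the value in S vs C was 2.33 (adjusted p = 0.132). Without C animal 10876 the remaining C animals were at 2 counts or fewer, and no fold is given.

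Hgf was even across the C livers and lower in most HFD livers, with no comparison past the test. Controls lay from 24.7 to 31.1 CPM with a median of 27.0 CPM. The NS animals had 30.7, 15.7, 23.6, 21.6 and 5.67 CPM, and the S animals had 19.5, 21.9 and 23.4 CPM (females) and 37.9 and 6.82 CPM (males 36016 and 10880). So 4 of 5 NS and 4 of 5 S animals lay below every C animal, and S animal 36016 lay above every C animal. The lowest animal of each HFD group was SM2, while the SM2 animal of C had 25.3 CPM. The log2 fold change was -0.49 ± 0.36 in NS vs C (adjusted p = 0.754) and -0.32 ± 0.36 in S vs C (adjusted p = 0.614), or -0.61 without animal 36016 (adjusted p = 0.346). Stellate cell markers, 14 of 14 tested, summed to 446 to 765 CPM in C and 312 to 638 CPM in NS, with the lowest sum in NS animal 10865. In S they summed to 385 to 739 CPM in 4 animals and to 2593 CPM in animal 36016, of which 2058 CPM were Col1a1 alone. The median log2 fold change of these markers in S vs C was 0.07 (-0.03 without animal 36016), and Des was at 0 in at least 1 animal. Of the 14, 1 was called higher and 1 lower in S vs C. The higher one was Col1a1, a fibrillar collagen gene (5.56 ± 1.39, adjusted p = 0.0397), which was not called without animal 36016. The lower one was Dcn, which encodes the matrix proteoglycan decorin (-1.05 ± 0.25, adjusted p = 0.0354). The part of stellate cells in the Hgf level was not tested.

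Met, the receptor for HGF, did not pass the test in any comparison. The C animals ranged from 68.6 to 167 CPM with a median of 94.4 CPM. The NS animals had 77.1, 112, 75.5, 150 and 48.9 CPM, and the S animals had 94.3, 110 and 56.6 CPM (females) and 96.7 and 41.5 CPM (males). As for Hgf, the lowest animal of each HFD group was SM2. Met had a log2 fold change of -0.34 in S vs C (95% interval -0.98 to 0.29) and -0.13 in NS vs C (-0.76 to 0.50). Of HGF activators and MET adaptors, all 21 listed were tested, with a median of 0.25 in S vs C, and 1 was called. This was Spry2, an inhibitor of receptor tyrosine kinase signalling (log2 fold change 1.14 ± 0.38, adjusted p = 0.0885). It had 16.0 CPM in animal 36016, 2.68 to 5.05 CPM in the other S animals and 1.72 to 3.61 CPM in C. Its call was kept in 5 of the 16 fits that left out 1 animal, and without animal 36016 its value was 0.49 (adjusted p = 0.318).

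Fgfr4, the receptor through which intestinal FGF15/19 restrains bile acid synthesis, had the narrowest range of the 10 genes, 1.57-fold over all 16 animals. Levels in C ranged from 79.8 to 107 CPM with a median of 98.2 CPM. In NS, Fgfr4 had 82.8, 93.9, 68.1, 97.6 and 78.3 CPM, and the S animals had 88.6, 76.0 and 89.1 CPM (females) and 75.1 and 91.6 CPM (males). Fgfr4 had a log2 fold change of -0.18 in S vs C (95% interval -0.45 to 0.08) and -0.18 in NS vs C (-0.45 to 0.09), and S vs NS gave 0.00 (-0.28 to 0.28). These intervals exclude a change of 2-fold in either direction. Of the FGFR4 axis and bile acid targets, 13 of 14 listed were tested, with a median of 0.71 in S vs C, or 0.24 with the 2 genes at or under 3 counts in every animal of a group set to their bounds. Of them 1 was called: Fgfr2, another FGF receptor, had 39.6 to 135 CPM in S, 38.9 to 103 CPM in NS and 18.1 to 56.8 CPM in C. Its log2 fold change in S vs C was 1.17 ± 0.34 (adjusted p = 0.0589). It was 1.09 in NS vs C (adjusted p = 0.408) and 0.08 in S vs NS (adjusted p = 0.960). The S vs C call was lost without S animals 35982 (0.89, adjusted p = 0.140) or 36016 (0.118), and without C animals 35975 (0.124), 36001 (0.120) or 36007 (0.121). It was also lost with sex as a covariate (adjusted p = 0.129), with male animals only (0.106) and with the S females alone (0.166).

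Of genes under FOXO1 and insulin, which share the regulation of Igfbp1, 15 of 17 listed were tested, with a median of 0.11, and the 3 comparisons called none of them. Ppargc1a, a fasting-induced coactivator of gluconeogenic genes, had a log2 fold change of -0.89 ± 0.33 (adjusted p = 0.122). Without animal 36016 it was called, at -1.36 (adjusted p = 0.0298).

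Of genes that mitogens induce, 19 of 21 listed were tested, with a median of 0.41 in S vs C (0.10 over all genes). Of them 5 were called, all higher: Ccnd1, Gadd45a, Dusp1, Ccna2 and Spry2, where 4.06% of all genes were called. Spry2 is also in the list of MET adaptors. Without animal 36016, 2 were called, Ccnd1 and Dusp1, and the list median was 0.49. Ccnd1, which encodes the G1 cyclin D1, had 62.3 CPM in animal 35990 and 38.5 CPM in 36016, 2.78 to 5.49 CPM in the other S animals and 1.18 to 3.90 CPM in C. Its log2 fold change was 3.15 ± 0.72 (adjusted p = 0.0310), and 2.29 without animal 35990, where it was still called. Dusp1, a phosphatase that shuts off MAP kinases, had 72.8 to 286 CPM in S and 24.5 to 148 CPM in C (1.56 ± 0.45, adjusted p = 0.0589). Its call was lost without S animal 35955 (1.34, adjusted p = 0.109) or C animals 35975 (0.123), 36001 (0.114) or 36007 (0.114). It was also lost with BW animals only (1.18, adjusted p = 0.137) and with the S females alone (1.36, adjusted p = 0.205). Gadd45a, a growth arrest gene, had 5.91 to 24.4 CPM in S and 1.39 to 7.95 CPM in C (1.81 ± 0.49, adjusted p = 0.0497). In NS it had 4.97 to 18.9 CPM, with 1.56 in NS vs C (adjusted p = 0.433) and 0.25 in S vs NS (adjusted p = 0.889). Its S vs C call was lost without S animal 36016 (1.53, adjusted p = 0.114) or C animal 35975 (0.108), and with the S females alone (1.51, adjusted p = 0.189).

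Over the 9 lists together, without the 10 members, 127 of 159 distinct genes were tested in S vs C, and 11 rose and 1 fell. That is 9.45%, beside 4.06% over all genes. Without animal 36016, 3 rose and 2 fell (4.10%). Over all genes, 245 were called in S vs C in that fit, in place of 513 in the main fit. The 4.10% is therefore not comparable with the 4.06%, which is from the main fit. With male animals only, 13 rose and 1 fell (11.2%), and more of all genes were called in S vs C than in the main fit. In the main fit, NS vs C gave 0 calls among the 127, and so did S vs NS. With male animals only, 5 of 125 were called in S vs NS. With BW animals only, 1 of 126 was called in NS vs C. Across the alternatives, calls among all genes ran from 0 to 191 in S vs NS and from 2 to 53 in NS vs C.

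The genes whose levels followed the members most closely were found by Pearson's r of log2(CPM + 1) over 16 animals among 10325 genes with a mean of at least 1 CPM. The animals share diet groups, so the values are given as a description. For Lifr they were Ptgr2 (r = 0.925), Akap6 (0.902) and Kdm6a (0.870). For Socs2 they were Pitpnm1 (0.802), Klhl12 (0.801) and Cenpo (0.790), and for Igfbp2 they were Nop53 (0.833), Agxt (0.832) and Mif (0.820). Ptgr2 ranged from 34.0 to 88.2 CPM and was highest in S female 35955, and Akap6 and Kdm6a were highest in S female 35982, which also had the highest Lifr.

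The study's measure of coordination is the composite correlation (Pc). For a gene, the Pearson's r with every other gene is calculated within each of 2 groups, and Pc is the correlation between both lists of r. High values mean that a gene kept its pattern of correlations between the groups. On the deposited counts, the median Pc of the 10 members was 0.20 for S vs C, 0.00 for NS vs C and 0.25 for S vs NS, with jackknife standard errors over animals of 0.074, 0.18 and 0.20. The medians over all genes were 0.20, 0.10 and 0.17. The highest members were Hgf (0.45), Met (0.41) and Lifr (0.39) in S vs NS. The values of single members depended on scaling the counts to depth. In S vs C, Ghr had a Pc of 0.29 on counts and 0.00 on TMM-normalized CPM, Fgfr4 had 0.19 and -0.19, and Met had -0.10 and 0.30. In S vs NS, the Pc of Hgf, Met and Lifr remained positive on TMM-normalized CPM, at 0.29, 0.53 and 0.47. With 5 or 6 animals a group each r rests on few points, and no test was made.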

How the data were processed

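Liver RNA of 16 deer mice was sequenced as paired-end reads from a directional library kit. The authors mapped them to HU_Pman_2.1 with STAR 2.7.2 and ran featureCounts on reads with a unique position. They deposited raw counts, 1 row per gene symbol. The strand setting and the conversion to symbols are not given in the sources used here, so counts of overlapping or antisense genes and close paralogs are uncertain. The members and gene lists were chosen with earlier results of these data known.

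All 16 animals entered 1 edgeR 4.0.16 fit (R 4.3.3, quasi-likelihood test, TMM, no covariates) of 12639 genes, each reaching 0.5 CPM in 1 animal or more. A call needed a Benjamini-Hochberg adjusted p under 0.1 and a fold of at least 2. Standard errors were derived from the F statistic. Each animal was 1 replicate. No 2 animals of a group agreed within sampling noise (lowest chi-square per degree of freedom 23.6, scaled by total counts). Precision was limited by depth for genes of few counts. From each list the called genes were named, at most 3 by adjusted p, or, with none, the 2 of smallest p in S vs C; 1 gene so chosen is not reported here. For 3 members, called ones first and then by smallest p, the 3 genes most like them were named. Other genes named (Col1a1, Vim, Dcn, Des, Ccna2) were chosen after their values were seen. Alternatives were DESeq2 1.42.0, RLE factors or total counts, other filters and thresholds, sex or stock as covariate, BW or male animals only, the groups compared only, and each animal left out. The fits were tested on simulated data. Pc and figures used Python 3.11.15, numpy 2.4.6, pandas 2.3.3 and matplotlib 3.10.9.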

Additional observations from a re-analysis of the deposited data

Results flagged for a closer look

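Within each group of 5 or 6 animals, each of the 10 genes was checked for an animal whose CPM stood far from all others, by the gap to its nearest neighbour as a share of the group's range. Of 30 such checks 6 singled out an animal. The cutoff has a rate of about 1 in 20 by chance only for normally distributed values. Levels of sparse genes such as Igfbp2 were skewed, so the 6 cannot be set against that rate. Igfbp2 had one in each group: 25.2 CPM in C animal 36001, 8.70 CPM in NS animal 10865 and 6.58 CPM in S animal 35990. Socs2 had 30.1 CPM in NS animal 35987. Egfr had 147 CPM in C animal 10876, which is of the SM2 stock. Met had 167 CPM in C animal 35998. The other 24 checks singled out no animal. No cause was tested for any of them.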

How the results depend on the processing

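Of the 2 calls in S vs C, both were kept with DESeq2, RLE size factors, total counts, other filters on low counts, stock as a covariate, BW animals only and the groups compared only. The number was 0 at an adjusted p under 0.05, with sex as a covariate and with male animals only, and 0 to 3 over the fits that left out 1 animal. In NS vs C it was 0 throughout. In S vs NS it was 1 (Lifr) with BW animals only and with DESeq2, and 0 to 1 with 1 animal left out. Over all genes, S vs C gave 173 to 927 calls, NS vs C 2 to 53 and S vs NS 0 to 191.

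Total counts without composition factors moved the median of all genes in S vs C from 0.10 to 0.33, with 843 genes higher and 84 lower in place of 391 and 122. Igf1 (0.18), Egfr (0.11) and Fgfr4 (0.046) then changed sign in S vs C but lay below that median, as Fgfr4 did in S vs NS (0.13, median 0.17), and no member's call changed.

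The other changes of sign were in values that were not called, except for Socs2 and Stc2 in S vs C. In S vs C, with sex as a covariate and with male animals only, Ghr was -0.057 and -0.056, Socs2 -0.28 and -0.29, and Egfr 0.13 in both. With the females alone Igf1 was 0.18 and Stc2 -2.29. Stc2 had 0 counts in all 3 S females and 0 to 1 in C, so its value there shows no direction. In NS vs C, BW animals only gave Egfr 0.015, Met 0.023 and Lifr 0.052, and Socs2 was -0.65 without NS animals 35987 and 10865, a fit added after the data were seen. In S vs NS, sex as a covariate and male animals only gave Igf1 -0.28 in both, Igfbp1 -1.19 in both, and Socs2 -1.60 and -1.61. Igfbp2 was 0.13 with stock as a covariate, 1.55 with BW animals only and 0.083 with the females alone. Its counts were 0 to 69 in both HFD groups, so these folds are imprecise. Egfr was -0.10 with BW animals only and -0.060 with the females alone. Fgfr4, at 0.00, was 0.012 with RLE factors, 0.011 with filterByExpr, 0.0057 with the 2 groups only, 0.013 with DESeq2 and 0.0075 with the females alone.

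With 1 animal left out, the signs varied in S vs C for Ghr (-0.039 to 0.25), Igf1 (-0.27 to 0.13) and Egfr (-0.32 to 0.12), and in NS vs C for Met (-0.37 to 0.075). In S vs NS they varied for Igf1 (-0.070 to 0.33), Igfbp1 (-0.40 to 1.24), Egfr (-0.072 to 0.21), Met (-0.38 to 0.024), Hgf (-0.11 to 0.41) and Fgfr4 (-0.068 to 0.059). They also varied for Igfbp2 (-3.04 to 1.29), whose counts were 0 to 69 in both HFD groups. The median Pc of the members in S vs C was 0.057 with TMM-normalized CPM, and 0.091 if CPM came from total counts. In NS vs C it was 0.090 if CPM came from total counts, 0.11 with BW animals only and -0.10 to 0.11 with 1 animal left out, and in S vs NS 0.039 on TMM-normalized CPM. The cause of these changes was not tested. In all, 763 of 831 alternative values of the members kept their direction and side of the threshold, but most were of members that were not called. With 1 animal left out, Socs2 kept its S vs C call in 9 of 16 fits and Lifr in 10 of 16. In the 12 other alternatives each kept it in 9.

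No paired analysis was possible because the labels give no replicate number that groups share. Nothing in the labels marks a batch. Counts limit Igfbp2 most, with 3 counts or fewer in 6 animals, and the smallest library is that of animal 36016. With 5 or 6 animals a group, a p that misses the threshold does not show that levels were alike, and the S group differs from the others in sex as well as in steatosis.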
